A study of Mus musculus with 12 samples.

Results

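The interferon regulatory factors are a family of transcription factors, and 8 of their genes, Irf1, Irf2, Irf3, Irf4, Irf5, Irf7, Irf8 and Irf9, were followed here in purified bone-marrow pro-B cells, the precursors in which the antibody heavy-chain gene is assembled. The members were chosen by platform gene symbol. They matched 9 of 23410 transcript clusters with a symbol, and each gene was read through its cluster with the highest mean, 8 genes out of 19938. The samples are 12 Affymetrix Mouse Gene ST arrays, which read RNA by hybridisation, in 3 groups of 4. Every mouse was 1 month old and housed without specific pathogens. The groups were Cd72+/-;Pax5+/-, heterozygous for both genes, Pax5+/-, heterozygous for Pax5 alone, and WT. By the cell-type labels the WT cells are pro-B cells, and those of the heterozygotes are preleukemic precursor B-cells. The series title ties the joint loss of Pax5 and Cd72 to B-cell leukemia, so the comparisons ask what loss of 1 Pax5 copy changed and what the added loss of 1 Cd72 copy changed. Pax5 commits cells to the B lineage, and Cd72 is an inhibitory co-receptor on their surface. The sources used here do not give the alleles, the number of mice or any pooling. The p-values therefore measure the spread among the arrays alone, and that spread may be technical.

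Factors of this family bind DNA through a conserved tryptophan-rich domain that recognises GAAA-containing elements, the interferon-stimulated response element (ISRE) among them. Irf3, Irf5 and Irf7 wait in the cytoplasm until sensors of foreign nucleic acid set off their phosphorylation, and then induce interferons and inflammatory genes. Irf9 binds DNA for the complex that carries the type I interferon signal to the nucleus, while Irf1 and Irf2 act on overlapping sites as activator and, mostly, repressor. Irf4 and Irf8 are the lymphoid members. They bind with the ETS factors PU.1 (Spi1) and Spib, and in precursor B cells they act together to end surrogate light chain expression and to start light-chain rearrangement.

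The start regions of the 5 called members, and of Irf2 for its motif matches, are shown because promoters of this family are themselves known targets of interferon signalling. Windows of 300 bases, 250 before and 50 after a transcript start, were taken from RefSeq (build GRCm38.p6) for all 8 genes, 11 windows in all, and none lies on chromosome X or Y. Capitals mark matches to 3 motifs searched on both strands, which are the ISRE core (GAAA, any 2 bases, GAAA), the gamma-activated site TTCNNNGAA that STAT dimers bind, and the ETS-IRF composite element (GGAA, any 2 bases, GAAA), which can overlap the ISRE core. Among 32851 windows of this length, 3.44% hold the ISRE core, 8.3% the gamma-activated site and 2.72% the composite element. Irf1 and Irf8, which were lower in Cd72+/-;Pax5+/- than in WT, are shown first, then Irf4, Irf7 and Irf9, which were higher, and then Irf2, which passed no test and holds the only ISRE core and composite matches of the family. The Irf7 window starts at a transcript that begins inside the annotated gene.
Irf1 (chr11:53769764-53770063, plus strand): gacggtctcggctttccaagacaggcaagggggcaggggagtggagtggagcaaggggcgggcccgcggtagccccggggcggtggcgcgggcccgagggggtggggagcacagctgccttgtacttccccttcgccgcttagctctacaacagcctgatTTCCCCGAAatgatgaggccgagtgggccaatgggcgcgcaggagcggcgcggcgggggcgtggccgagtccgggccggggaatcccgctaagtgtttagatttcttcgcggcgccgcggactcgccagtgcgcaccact
Irf8 (chr8:120736108-120736407, plus strand): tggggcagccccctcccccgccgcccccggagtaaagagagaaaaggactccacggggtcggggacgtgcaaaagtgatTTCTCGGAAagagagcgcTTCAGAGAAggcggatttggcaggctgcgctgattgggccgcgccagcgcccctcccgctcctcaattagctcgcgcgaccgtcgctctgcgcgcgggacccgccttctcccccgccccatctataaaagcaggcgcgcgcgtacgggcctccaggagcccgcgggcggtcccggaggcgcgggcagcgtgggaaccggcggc
Irf4 (chr13:30748983-30749282, plus strand): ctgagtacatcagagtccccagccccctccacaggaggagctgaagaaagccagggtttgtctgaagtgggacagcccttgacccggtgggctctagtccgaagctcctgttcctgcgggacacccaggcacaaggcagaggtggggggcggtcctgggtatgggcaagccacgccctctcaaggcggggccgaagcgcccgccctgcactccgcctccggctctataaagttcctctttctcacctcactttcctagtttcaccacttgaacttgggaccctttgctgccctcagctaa
Irf7 (chr7:141266375-141266674, minus strand): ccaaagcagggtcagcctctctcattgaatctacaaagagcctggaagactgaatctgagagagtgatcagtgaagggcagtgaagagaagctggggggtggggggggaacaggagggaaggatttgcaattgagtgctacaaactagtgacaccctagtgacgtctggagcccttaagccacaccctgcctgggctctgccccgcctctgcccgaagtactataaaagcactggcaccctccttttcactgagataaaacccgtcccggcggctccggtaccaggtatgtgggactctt
Irf9 (chr14:55603735-55604034, plus strand): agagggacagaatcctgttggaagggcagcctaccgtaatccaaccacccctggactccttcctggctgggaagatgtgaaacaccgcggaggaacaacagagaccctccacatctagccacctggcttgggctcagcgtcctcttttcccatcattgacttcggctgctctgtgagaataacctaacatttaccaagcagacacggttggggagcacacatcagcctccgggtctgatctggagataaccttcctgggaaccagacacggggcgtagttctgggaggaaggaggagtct
Irf2 (chr8:46739495-46739794, plus strand): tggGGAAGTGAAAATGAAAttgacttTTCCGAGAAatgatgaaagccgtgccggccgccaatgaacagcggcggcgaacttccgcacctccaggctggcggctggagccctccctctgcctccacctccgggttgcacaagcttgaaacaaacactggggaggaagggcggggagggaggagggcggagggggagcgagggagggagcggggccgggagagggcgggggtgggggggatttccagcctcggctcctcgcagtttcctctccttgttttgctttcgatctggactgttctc
The Irf1 window holds a gamma-activated site from -90 to -82 of the start, and the Irf8 window holds 2, from -171 to -163 and from -153 to -145. The Irf2 window holds a composite element from -247 to -238 that overlaps an ISRE core from -241 to -232, and a gamma-activated site from -224 to -216. No match to the 3 motifs was found in the windows of Irf4, Irf7 and Irf9 shown, in those of Irf3 and Irf5, or in the other windows of Irf1, Irf8 and Irf9. These are matches of letters in short windows and not measured sites.

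Before the members' values, some facts of the arrays bear on every comparison. Pax5 read 11.11 to 11.31 in Cd72+/-;Pax5+/-, 10.65 to 11.21 in Pax5+/- and 11.40 to 11.72 in WT, and Cd72 read 7.34 to 7.67, 10.03 to 10.27 and 8.43 to 9.39 in the same groups (log2 signal). Pax5 was lower than in WT by a log2 difference of -0.363 in Cd72+/-;Pax5+/- (limma adjusted p = 0.0781) and -0.598 in Pax5+/- (adjusted p = 0.0051). The sources used here do not say whether these probes lie in the deleted parts. The X-inactivation RNA Xist read 11.75 to 11.9 in Cd72+/-;Pax5+/- and 5.00 to 5.52 on all other arrays. Uty, carried on the Y chromosome, read 4.88 to 5.19 in Cd72+/-;Pax5+/- and 8.85 to 9.74 on all other arrays, so genotype and sex cannot be told apart in any comparison with Cd72+/-;Pax5+/-. Arrays of a group fell into close pairs. In Pax5+/- the SD over clusters of the difference between 2 arrays was 0.122 to 0.177 for replicates 1 with 3 and 2 with 4, and 0.195 to 0.281 for all other pairings. In WT the same pairings gave 0.109 to 0.117, and the others 0.27 to 0.28. In Cd72+/-;Pax5+/- replicates 1 with 2 and 3 with 4 were closest, at 0.117 to 0.125 against 0.128 to 0.183. The mean of 8 stromal and endothelial markers followed the same division, at 8.53 and 8.60 in Pax5+/- replicates 1 and 3 and 7.65 and 7.69 in replicates 2 and 4, and at 8.53 and 8.50 in WT replicates 1 and 3 and 7.82 and 7.86 in replicates 2 and 4. It was 7.21 to 7.49 in Cd72+/-;Pax5+/-. The stromal genes Col1a1, Col1a2, Sparc and Cxcl12 carried this division. The endothelial genes Kdr, Emcn and Cdh5 did not follow it. Pecam1 followed it in WT and ran the other way in Pax5+/-. The labels do not say whether a close pair is 1 sample measured again, so the members' calls below are also given with the closest pairs averaged to 2 values per group. Of 12 markers of pro-B and pre-B cells 11 were measured, and their mean was 11.31 to 11.48 in Cd72+/-;Pax5+/-, 11.498 to 11.597 in Pax5+/- and 11.02 to 11.89 in WT. In Cd72+/-;Pax5+/- against WT, 8 of the 11 had a positive difference, with a median of 0.228 against 0.002 over all clusters. There 1 rose and 1 fell, where 4.12% and 3.66% of all clusters did. The 1 that fell was Dntt, the terminal transferase of early precursors, by 2.34 (limma adjusted p = 0.00515, and 0.302 with the closest pairs averaged). Dntt read 8.29, 8.52, 8.40 and 8.85 in Cd72+/-;Pax5+/-, 10.82, 10.57, 10.61 and 10.54 in Pax5+/- and 11.93, 9.76, 11.92 and 9.82 in WT, so it too divided the WT arrays. In RNA of whole cell samples, fewer cells of a type and less RNA per cell cannot be told apart.

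In Cd72+/-;Pax5+/- against WT, 5 of the 8 genes passed the test at an adjusted p under 0.05 (limma, Benjamini-Hochberg over 23410 clusters), against 7.78% of all clusters. Irf7, Irf9 and Irf4 rose, where 4.12% of clusters did, Irf1 and Irf8 fell, where 3.66% did, and Irf2, Irf3 and Irf5 did not pass. Changes were moderate, with the largest at 1.79-fold. The groups did not overlap for 6 genes, the 5 called and Irf3, where 14.8% of all clusters did not overlap. In Pax5+/- against WT, 2 of 8 passed, against 7.47% of all clusters. Irf4 rose, as did 4.28% of clusters, and Irf1 fell, as did 3.2%. Groups did not overlap for 3 of the 8 members and for 10.7% of all clusters. In Cd72+/-;Pax5+/- against Pax5+/-, 3 of 8 passed, against 9.79% of all clusters. Irf7 and Irf9 rose, where 4.44% of clusters did, and Irf8 fell, where 5.35% did, and 4 members did not overlap, against 18.5% of all clusters. By the study's own rule (a change of over 2-fold at p under 0.05, here without adjustment) no member passed in any of the 3 comparisons in the order above, and 0.914%, 0.957% and 1.2% of all clusters did. The median difference over the 8 members was 0.105, 0.065 and -0.062 on the log2 scale in these comparisons, against 0.002, -0.005 and 0.005 over all clusters, with members of both signs. The median size of the difference, whatever its sign, was 0.519, 0.159 and 0.178 for the members and 0.07, 0.067 and 0.075 for all clusters. With the closest pairs averaged no member passed the adjusted threshold in any comparison, where 1.24%, 1.2% and 1.79% of all clusters passed it in the order above. In those averaged limma fits 5, 2 and 3 members had an unadjusted p under 0.05. Shares of all clusters at an unadjusted p alone were not computed. Such counts, here and below, therefore have no scale and are not calls.

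**Figure D1:**
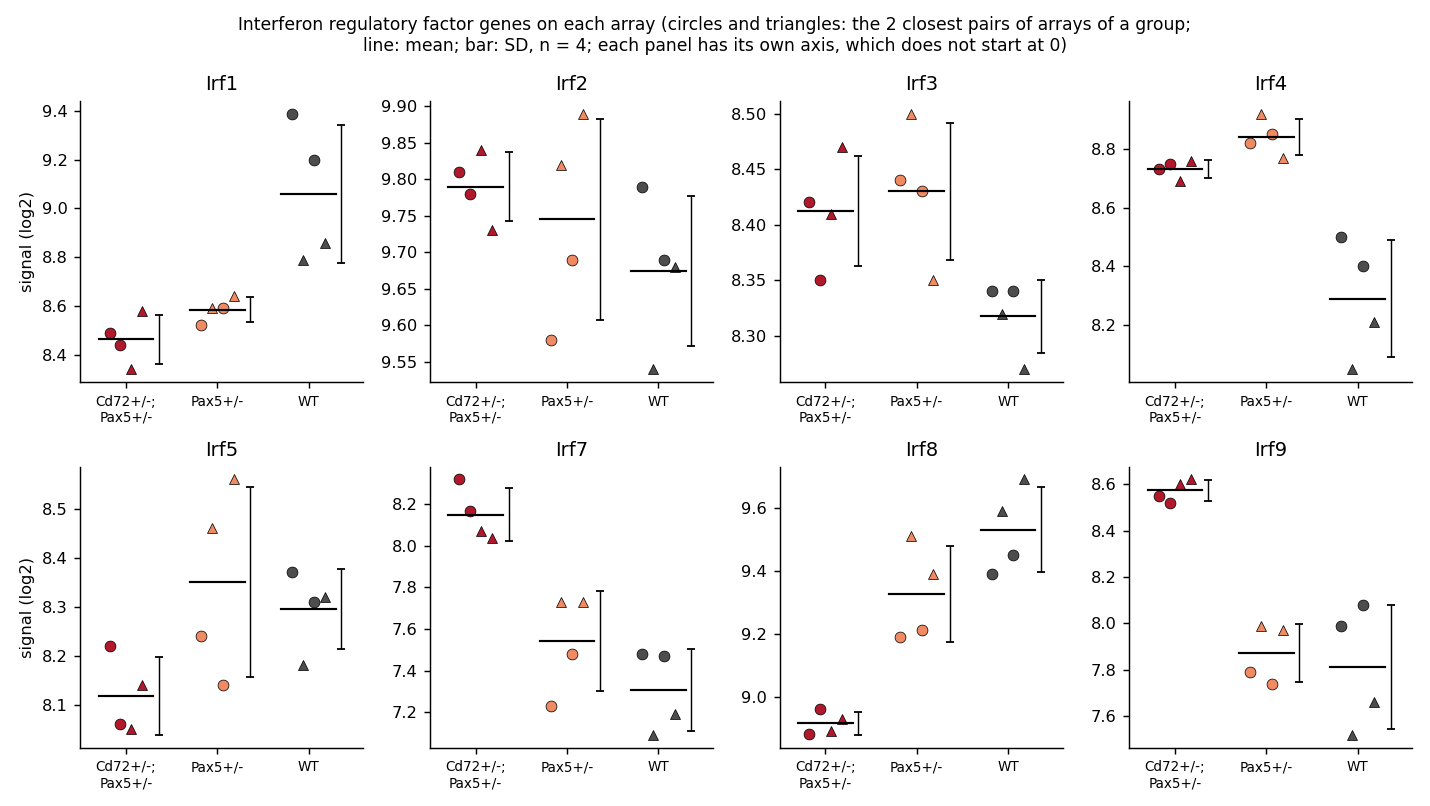
Log2 signal of the 8 genes on each array, 1 panel per gene, for Cd72+/-;Pax5+/-, Pax5+/- and WT from left to right (points: arrays, circles and triangles marking the closest pairs; line: mean; bar: SD, n = 4). Irf7 and Irf9 are highest on the 4 Cd72+/-;Pax5+/- arrays, Irf8 is lowest there, and Irf1 and Irf4 set both mutant groups apart from WT.

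Irf9, the DNA-binding subunit of the type I interferon complex, was higher in the double heterozygotes, Cd72+/-;Pax5+/-, than in both other groups. It read 8.55, 8.52, 8.60 and 8.62 in Cd72+/-;Pax5+/- replicates 1 to 4, 7.79, 7.99, 7.74 and 7.97 in Pax5+/- and 7.99, 7.52, 8.08 and 7.66 in WT. Every double-heterozygous array lay above every other array, and the Pax5+/- and WT arrays overlapped. It rose 1.69-fold in Cd72+/-;Pax5+/- against WT (log2 difference 0.76, SE 0.109, limma adjusted p = 0.000683) and 1.62-fold against Pax5+/- (0.70, SE 0.109, adjusted p = 0.00102). The difference of 0.06 between Pax5+/- and WT did not pass (95% interval -0.178 to 0.298, limma adjusted p = 0.859), and it was -0.27 among replicates 1 and 3 of both groups and 0.39 among replicates 2 and 4. With the closest pairs averaged, the adjusted p of both rises became 0.154 and 0.164.

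Irf7, the inducible amplifier of the type I interferon response, had the largest difference of the family. It read 8.32, 8.17, 8.07 and 8.04 in Cd72+/-;Pax5+/-, 7.23, 7.73, 7.48 and 7.73 in Pax5+/- and 7.48, 7.09, 7.47 and 7.19 in WT. The double-heterozygous arrays were the 4 highest, and the other groups overlapped. It rose 1.79-fold in Cd72+/-;Pax5+/- against WT (log2 difference 0.84, SE 0.122, limma adjusted p = 0.000705) and 1.52-fold against Pax5+/- (0.61, SE 0.122, adjusted p = 0.00623). The level in Pax5+/- was 0.235 above WT, which did not pass (limma adjusted p = 0.355), at 0.59 among replicates 2 and 4 of both groups and -0.12 among replicates 1 and 3. Averaging the closest pairs gave an adjusted p of 0.141 against WT and 0.259 against Pax5+/-.

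Irf3, the constitutive sensor-activated factor, differed little between groups. It read 8.42, 8.35, 8.41 and 8.47 in Cd72+/-;Pax5+/-, 8.44, 8.50, 8.43 and 8.35 in Pax5+/- and 8.34, 8.32, 8.34 and 8.27 in WT. Each mutant array lay above each WT array (exact two-sided permutation p = 0.0286 in both cases, the smallest that 4 against 4 arrays can give), yet the differences of 0.095 and 0.113 did not pass over all clusters (limma adjusted p = 0.275 and 0.196). Irf5, which carries Toll-like receptor signals through Myd88, read 8.05 to 8.22 in Cd72+/-;Pax5+/-, 8.14 to 8.56 in Pax5+/- and 8.18 to 8.37 in WT. All groups overlapped. Its largest difference, -0.23 in Cd72+/-;Pax5+/- against Pax5+/- (95% interval -0.418 to -0.047), had a limma adjusted p of 0.119, which became 0.0402 without Pax5+/- replicate 3 and 0.0375 with array weights.

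Irf1, an activator induced by interferon gamma and by cytokine signals, was lower in both mutant groups. It read 8.49, 8.44, 8.34 and 8.58 in Cd72+/-;Pax5+/-, 8.52, 8.59, 8.59 and 8.64 in Pax5+/- and 9.39, 8.79, 9.20 and 8.86 in WT. Every mutant array was below every WT array, and WT replicates 1 and 3 were above WT replicates 2 and 4. It fell 1.51-fold in Cd72+/-;Pax5+/- against WT (log2 difference -0.597, SE 0.112, limma adjusted p = 0.00486) and 1.39-fold in Pax5+/- against WT (-0.475, SE 0.112, adjusted p = 0.0198). The mutant groups did not differ past the test (-0.123, 95% interval -0.366 to 0.121, limma adjusted p = 0.598). The fall in Pax5+/- was -0.74 among replicates 1 and 3 of both groups and -0.21 among replicates 2 and 4, where it did not pass (adjusted p = 0.0904). It also missed the threshold without Pax5+/- replicate 2 (adjusted p = 0.0511), with only the compared groups in the fit (0.0748) and with the closest pairs averaged (0.412), and the fall in Cd72+/-;Pax5+/- had an adjusted p of 0.251 with the pairs averaged. A second Irf1 cluster, placed there by 1 cDNA accession, read 7.05 to 7.11 in Cd72+/-;Pax5+/-, 6.84 to 7.23 in Pax5+/- and 7.07 to 7.35 in WT, and passed in no comparison (limma adjusted p of 0.392 to 0.926). Irf2, the counterpart of Irf1 on shared sites, read 9.73 to 9.84 in Cd72+/-;Pax5+/-, 9.58 to 9.89 in Pax5+/- and 9.54 to 9.79 in WT, with differences of 0.045 to 0.115 that did not pass (limma adjusted p of 0.433 to 0.788).

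The lymphoid members parted in direction. Irf4 read 8.73, 8.75, 8.69 and 8.76 in Cd72+/-;Pax5+/-, 8.82, 8.92, 8.85 and 8.77 in Pax5+/- and 8.50, 8.05, 8.40 and 8.21 in WT. All 8 mutant arrays lay above all WT arrays. It rose 1.36-fold in Cd72+/-;Pax5+/- against WT (log2 difference 0.44, SE 0.0815, limma adjusted p = 0.00435) and 1.46-fold in Pax5+/- against WT (0.55, SE 0.0815, adjusted p = 0.000803). The rise in Pax5+/- was 0.385 among replicates 1 and 3 of both groups and 0.715 among replicates 2 and 4. Between the mutant groups the arrays did not overlap either, with Pax5+/- the higher, but the difference of -0.107 was small and did not pass (95% interval -0.285 to 0.07, limma adjusted p = 0.508). With the closest pairs averaged the adjusted p against WT was 0.238 in Cd72+/-;Pax5+/- and 0.14 in Pax5+/-.

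Irf8 read 8.88, 8.96, 8.89 and 8.93 in Cd72+/-;Pax5+/-, 9.19, 9.51, 9.21 and 9.39 in Pax5+/- and 9.39, 9.59, 9.45 and 9.69 in WT. The double-heterozygous arrays were the 4 lowest, and the other groups overlapped. It fell 1.53-fold in Cd72+/-;Pax5+/- against WT (log2 difference -0.615, SE 0.0801, limma adjusted p = 0.000307) and 1.33-fold against Pax5+/- (-0.41, SE 0.0801, adjusted p = 0.00516). In Pax5+/- against WT the difference of -0.205 did not pass (limma adjusted p = 0.179), at -0.22 among replicates 1 and 3 of both groups and -0.19 among replicates 2 and 4. With the closest pairs averaged the adjusted p in Cd72+/-;Pax5+/- was 0.112 against WT and 0.251 against Pax5+/-.

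**Figure D2:**
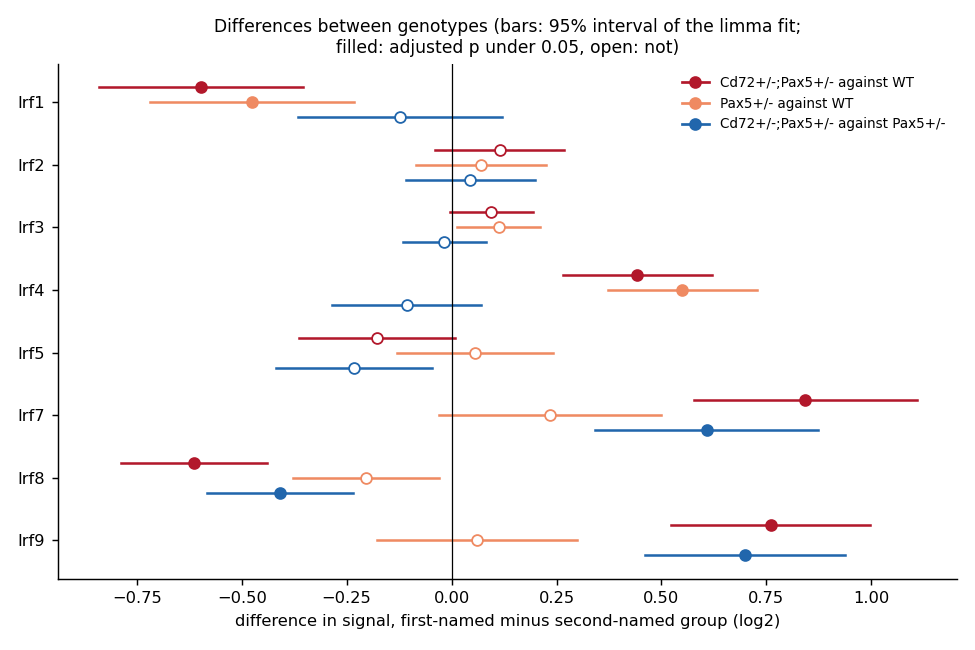
Difference in log2 signal (x axis) for each of the 8 genes (rows) in 3 comparisons, as the first-named minus the second-named group, with the 95% interval of the limma fit (n = 4 arrays per group; filled points: adjusted p under 0.05). Irf7 and Irf9 differ between the mutant groups as well as from WT, Irf8 does so in the other direction, and the mutant groups lie close together for Irf1 and Irf4.

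By group level, the order was Cd72+/-;Pax5+/- above Pax5+/- above WT for Irf7, Irf9 and Irf2, and the reverse for Irf1 and Irf8. Neighbours in that order did not differ past the test between Pax5+/- and WT for Irf7, Irf9 and Irf8, between the mutant groups for Irf1, and anywhere for Irf2. Irf4 and Irf3 were highest in Pax5+/-, next in Cd72+/-;Pax5+/- and lowest in WT, with no difference past the test between the mutant groups. Irf5 was highest in Pax5+/- and lowest in Cd72+/-;Pax5+/-, with none past the test.

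The division of the WT arrays reached all 5 called members. WT replicates 1 and 3 read higher than WT replicates 2 and 4 for Irf1, Irf4, Irf7 and Irf9, and lower for Irf8. In Pax5+/- the direction was the other one for Irf7 and Irf9, with replicates 2 and 4 above replicates 1 and 3, and the same one for Irf8. The stromal and endothelial marker mean given above was higher in replicates 1 and 3 of both groups, and the pro-B and pre-B marker mean was 11.86 and 11.89 in WT replicates 1 and 3 against 11.06 and 11.02 in replicates 2 and 4. Their part in these values was not tested. The differences between Cd72+/-;Pax5+/- and WT kept their direction for all 5 called members with either pair of WT arrays. Against WT replicates 1 and 3 they were 0.675 for Irf7, 0.538 for Irf9, 0.283 for Irf4, -0.832 for Irf1 and -0.505 for Irf8, and against WT replicates 2 and 4 they were 1.01, 0.982, 0.603, -0.362 and -0.725.

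Among target genes of the interferon-activated members, some were higher in Cd72+/-;Pax5+/- than in both other groups. Of 24 measured interferon-stimulated targets of Irf3, Irf7 and Irf9, 11 rose and none fell in Cd72+/-;Pax5+/- against WT, with a median log2 difference of 0.386 against 0.002 over all clusters, and 17 rose and none fell against Pax5+/- (median 0.43 against 0.005). Of all clusters 4.12% and 4.44% rose in these comparisons. The 17 include genes near the WT level. Eif2ak2 and Parp14 had means of 9.747 and 9.442 in Cd72+/-;Pax5+/- and 9.815 and 9.355 in WT. In Pax5+/- against WT none rose and 3 fell, Eif2ak2, Parp14 and Bst2 (median -0.096 against -0.005). Of all clusters 4.28% rose and 3.2% fell there. In that comparison 1 of 24 had an unadjusted p under 0.05 for a higher level by limma, and 7 of 24 for a lower level. The share of all clusters at that unadjusted p was not computed. Rsad2, the antiviral enzyme viperin, read 7.95, 7.88, 7.82 and 8.06 in Cd72+/-;Pax5+/-, 6.30, 6.33, 6.38 and 6.44 in Pax5+/- and 6.37, 6.24, 6.51 and 6.40 in WT. Only its double-heterozygous arrays stood apart, at 1.55 above WT (SE 0.0665, limma adjusted p = 1.4e-08) and 1.565 above Pax5+/- (adjusted p = 1.18e-08). Ifit1, which binds foreign RNA caps, rose by 1.41 and 1.38 in the same comparisons, and Rtp4 by 1.24 and 1.335. Stat2, the partner of Irf9, read 9.29 to 9.42 in Cd72+/-;Pax5+/-, 8.84 to 9.30 in Pax5+/- and 9.24 to 9.43 in WT and passed in no comparison. Irf7 and Irf9 are themselves interferon-stimulated genes, and both comparisons share the double-heterozygous arrays. After the closest pairs were averaged, a setting added for these targets after their values were seen, 2 of 24 rose in Cd72+/-;Pax5+/- against WT, Rsad2 and Ifit1, and 5 against Pax5+/-. The shares of all clusters that passed in the averaged fits are given above with the members' calls. On removal of replicates 1 and 3 from WT and Pax5+/- the counts of rising targets were 15 and 19, with 5 rising in Pax5+/- against WT. On removal of replicates 2 and 4 they were 10 and 18, with 0 rising in Pax5+/- against WT. Each removal leaves WT and Pax5+/- a close pair apiece, so the spread is small by construction. Of all clusters 9.94%, 11.2% and 10.8% rose in the 3 comparisons as named under the first removal, and 9.94%, 8.83% and 3.87% under the second.

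**Figure D3:**
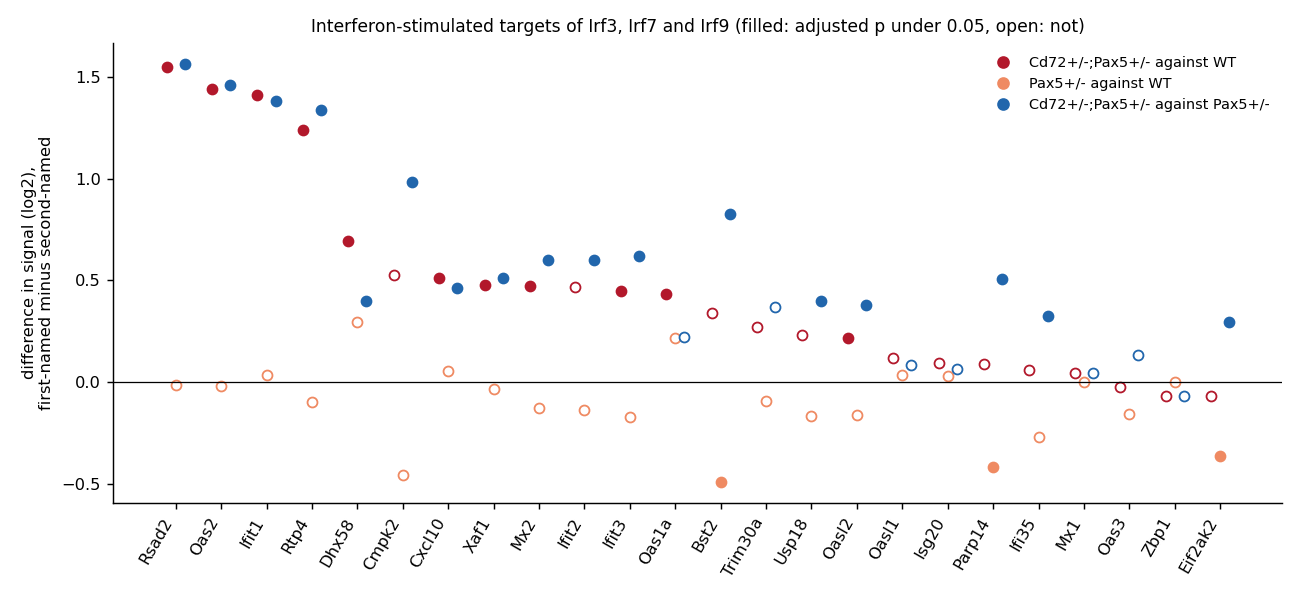
Difference in log2 signal (y axis), as the first-named minus the second-named group, for the 24 measured interferon-stimulated targets of Irf3, Irf7 and Irf9 (x axis), in 3 comparisons (filled points: limma adjusted p under 0.05). Rsad2, Oas2, Ifit1 and Rtp4 lie over 1 unit higher in Cd72+/-;Pax5+/- than in either other group, while the values of Pax5+/- against WT reach no higher than 0.295.

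No gene of the interferon ligands and receptors rose in Cd72+/-;Pax5+/- against either group. None of 8 measured interferon genes passed in any comparison by limma, and 0 had an unadjusted p under 0.05 (median log2 difference -0.019 in Cd72+/-;Pax5+/- against WT, 0.002 over all clusters). Interferon beta (Ifnb1) read 5.76 to 5.88 in Cd72+/-;Pax5+/-, 5.66 to 5.87 in Pax5+/- and 5.77 to 5.91 in WT. Its highest group mean was 5.825, and those of Ifna4 and Ifnk were 5.133 and 4.728. The filter on dim clusters asks for a highest group mean of 5.82. At so low a signal, a lack of change cannot be told from a lack of detection. Ifna2, Ifna9, Ifng and Ifne lay little above that level. Ifna5 read higher, with means of 8.758 in Cd72+/-;Pax5+/-, 8.707 in Pax5+/- and 8.74 in WT. Of 9 measured receptor, JAK and STAT genes, the type I receptor chains Ifnar1 and Ifnar2 fell in Cd72+/-;Pax5+/- against both other groups and none rose (median 0.005 against WT, 0.002 over all clusters). Of all clusters 3.66% fell against WT and 5.35% against Pax5+/-. The Ifnar1 signal was 10.10, 9.93, 9.92 and 10.01 in Cd72+/-;Pax5+/-, 10.36, 10.67, 10.44 and 10.66 in Pax5+/- and 10.84, 10.39, 10.82 and 10.44 in WT, so that the double-heterozygous arrays were the 4 lowest. Ifnar1 fell by 0.633 against WT (limma adjusted p = 0.00284) and by 0.542 against Pax5+/- (adjusted p = 0.00663). Ifngr1, a chain of the interferon gamma receptor, rose by 0.605 in Pax5+/- against WT (limma adjusted p = 0.00128), where Irf1 was lower, and was the only gene of that list to pass there. No receptor, JAK or STAT gene passed with the closest pairs averaged.

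Among 16 measured sensors, adaptors and kinases that activate Irf3, Irf5 and Irf7, 2 rose and 3 fell in Cd72+/-;Pax5+/- against WT, 3 rose and none fell against Pax5+/-, and none rose and 3 fell in Pax5+/- against WT. Of all clusters 7.78%, 9.79% and 7.47% passed in that order. The median log2 difference of the list was 0.006, 0.061 and -0.032, against 0.002, 0.005 and -0.005 over all clusters. Ifih1, the cytoplasmic RNA sensor MDA5 and itself an interferon-stimulated gene, read 7.98, 7.98, 8.04 and 8.14 in Cd72+/-;Pax5+/-, 6.59, 6.89, 6.81 and 6.56 in Pax5+/- and 7.46, 7.03, 7.56 and 7.27 in WT. The 3 groups did not overlap. It rose by 0.705 in Cd72+/-;Pax5+/- against WT (limma adjusted p = 0.00111) while in Pax5+/- it fell by 0.618 (adjusted p = 0.00291). Tlr7, an X-linked endosomal RNA receptor that signals through Irf5 and Irf7, fell by 0.63 in Cd72+/-;Pax5+/- against WT and by 1.37 in Pax5+/- against WT (limma adjusted p = 0.000106 and 9e-08). Cgas, the cytoplasmic DNA sensor, rose by 0.61 in Cd72+/-;Pax5+/- against WT (limma adjusted p = 3.78e-05). Its signal was low, with means of 5.673 in Cd72+/-;Pax5+/-, 5.225 in Pax5+/- and 5.062 in WT. All lie below 5.82, the highest group mean that the filter on dim clusters asks for. On averaging the closest pairs, Cgas rose in Cd72+/-;Pax5+/- against WT, Tlr7, Ifih1 and Cgas rose against Pax5+/-, Tlr7 fell in Pax5+/- against WT, and no other gene of the list passed.

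Targets of Irf1 did not move as 1 group. Of 15 measured genes, 3 rose and 1 fell in Cd72+/-;Pax5+/- against WT, 2 rose and 2 fell in Pax5+/- against WT, and 2 rose and 1 fell in Cd72+/-;Pax5+/- against Pax5+/-. Of all clusters 7.78%, 7.47% and 9.79% passed in that order. The median of the list was 0.08, -0.002 and 0.107, against 0.002, -0.005 and 0.005 over all clusters. Tap1 and Tap2 encode the chains of the peptide transporter that loads class I molecules. Tap1 rose by 0.705 in Cd72+/-;Pax5+/- and by 0.575 in Pax5+/-, each against WT (limma adjusted p = 0.00169 and 0.00674), while Tap2 fell by 0.643 in the double heterozygotes (adjusted p = 8.12e-05). Gbp3, a guanylate-binding protein, fell by 0.937 in Pax5+/- against WT (limma adjusted p = 7.41e-05). Ciita, the class II transactivator, rose by 0.695 in Cd72+/-;Pax5+/- against WT (limma adjusted p = 1.54e-05), and it alone of these genes still passed with the closest pairs averaged (0.0227).

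Of 13 measured genes for DNA-binding partners of Irf4 and Irf8, 1 rose and 1 fell in Cd72+/-;Pax5+/- against WT, 1 rose and 3 fell in Pax5+/- against WT, and 2 rose and none fell in Cd72+/-;Pax5+/- against Pax5+/-. Of all clusters 7.78%, 7.47% and 9.79% passed in that order. The median of the list was 0.058, -0.028 and 0.045, against 0.002, -0.005 and 0.005 over all clusters. Spib, the ETS partner, read 8.67, 8.58, 8.65 and 8.50 in Cd72+/-;Pax5+/-, 7.38, 8.02, 7.37 and 8.07 in Pax5+/- and 9.15, 8.85, 9.13 and 8.79 in WT. The 3 groups did not overlap, with Pax5+/- the lowest. Against WT, Spib fell by 1.27 in Pax5+/- (SE 0.156, limma adjusted p = 0.000183). Tcf3, which encodes the E2A proteins, fell by 0.475 in the same comparison (adjusted p = 0.000397), and Nfatc2, a factor that binds beside Irf4, fell by 0.2. Spi1, which encodes PU.1, read 9.60 to 9.76 in Cd72+/-;Pax5+/-, 9.18 to 9.68 in Pax5+/- and 9.11 to 9.65 in WT and passed in no comparison. Jun, a part of AP-1, rose by 0.768 in Cd72+/-;Pax5+/- and by 0.547 in Pax5+/- against WT (limma adjusted p = 8.46e-05 and 0.00123). None of the partner genes passed with the closest pairs averaged.

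Of 13 measured genes known to depend on Irf4 and Irf8 in precursor B cells, 1 rose and 1 fell in Cd72+/-;Pax5+/- against WT, 2 rose and 1 fell in Pax5+/- against WT, and 1 fell in Cd72+/-;Pax5+/- against Pax5+/-. Of all clusters 7.78%, 7.47% and 9.79% passed in that order. The median of the list was 0.082, 0.14 and -0.065, against 0.002, -0.005 and 0.005 over all clusters. Signed counts and medians have no single direction here, since the list includes Igll1 and Vpreb1, surrogate light chain genes whose expression these factors end. The list also includes Pax5, which is heterozygous in both mutant groups by design. Pax5 was the 1 gene that fell in Pax5+/- against WT. In Cd72+/-;Pax5+/-, Pax5+/- and WT, Igll1 read 12.79 to 13.23, 12.62 to 13.33 and 12.49 to 13.04. Vpreb1 read 12.57 to 12.79, 12.39 to 12.74 and 11.95 to 12.70. Ikzf3, which encodes Aiolos, read 6.68, 6.70, 6.64 and 6.79 in Cd72+/-;Pax5+/-, 7.95, 8.43, 8.16 and 8.32 in Pax5+/- and 7.85, 7.77, 7.89 and 7.86 in WT. Its double-heterozygous arrays were the lowest and its Pax5+/- arrays the highest, without overlap. Against WT, Ikzf3 fell by 1.14 in Cd72+/-;Pax5+/- (SE 0.0853, limma adjusted p = 2.59e-06, and 0.0212 with the closest pairs averaged). In Pax5+/- it rose by 0.373 (limma adjusted p = 0.0168). Irf4 rose in both mutant groups against WT, and Irf8 fell past the test in Cd72+/-;Pax5+/- alone. A link of Ikzf3 to either was not tested. The early B-cell factor Ebf1 rose by 0.25 in Cd72+/-;Pax5+/- and by 0.315 in Pax5+/- against WT (limma adjusted p = 0.0326 and 0.00816), and of the list Ikzf3 alone passed with the closest pairs averaged. Of 11 measured inhibitors and regulators of the Irf proteins, none passed in Cd72+/-;Pax5+/- against WT by limma, where 4 had an unadjusted p under 0.05. Against Pax5+/-, Usp18, which restrains interferon receptor signalling and is also on the target list, rose by 0.40 and Def6 rose by 0.372, while Ptpn6 fell by 0.335 (limma adjusted p = 0.003, 0.00847 and 0.000567). The phosphatase gene Ptpn6 was the only one to rise in Pax5+/- against WT, by 0.31, and the corepressor genes Irf2bp1, Irf2bp2 and Irf2bpl passed in no comparison. None of these regulators passed with the closest pairs averaged.

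Markers of cell types known for high Irf levels were set beside these values. Plasmacytoid dendritic cells depend on Irf8 and carry Irf7 at rest, and 8 of their 9 listed markers were measured. Their mean was 7.59 to 7.65 in Cd72+/-;Pax5+/-, 7.41 to 7.57 in Pax5+/- and 7.48 to 7.74 in WT. In Cd72+/-;Pax5+/- against WT 1 was higher and none lower, where 4.12% and 3.66% of all clusters were. The defining marker Siglech read 6.08 to 6.17, 6.07 to 6.34 and 6.05 to 6.11 in the same groups. Of these 8 markers 2 were higher and 2 lower in Pax5+/- against WT (4.28% and 3.2% of all clusters). In Cd72+/-;Pax5+/- against Pax5+/- 2 were higher and 1 lower (4.44% and 5.35% of all clusters). Bst2 and Spib are also on the target and partner lists above. The mean of 7 measured monocyte and macrophage markers was 6.80 to 6.86 in Cd72+/-;Pax5+/-, 7.17 to 7.27 in Pax5+/- and 7.01 to 7.45 in WT. The low mean rested on Ccr2, since over the other 6 markers it was 6.87 to 6.94 in Cd72+/-;Pax5+/-, 6.66 to 6.755 in Pax5+/- and 6.635 to 6.92 in WT. Ccr2 fell by 3.58 against WT (limma adjusted p = 2.41e-06, and 0.0279 with the closest pairs averaged), and Cd68 rose by 0.36 (adjusted p = 0.00884, and 0.22 with the pairs averaged). Plasma cells require Irf4, and of their 7 markers none passed in Cd72+/-;Pax5+/- against WT by limma, or had an unadjusted p under 0.05 (0 of 7). In Pax5+/- against WT 1 rose and 3 fell, where 4.28% and 3.2% of all clusters did. Prdm1, the plasma-cell factor Blimp-1, read 4.85 to 5.01 in Cd72+/-;Pax5+/-, 4.98 to 5.16 in Pax5+/- and 4.96 to 5.06 in WT. The part of other cell types in the members' values was not tested.

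For each called member, the 3 genes with the most similar profile were found by the root-mean-square difference over the 12 arrays after each gene was centred on its own mean. For Irf9 they were Vipr2, a receptor for vasoactive intestinal peptide, Thrb, a thyroid hormone receptor, and Gng4, a G-protein subunit, at 0.0972, 0.109 and 0.124 log2 units, where the SD of Irf9 over the arrays was 0.392. For Irf7 they were Fam53b, Vipr2 and the phosphatase Phlpp1, at 0.11, 0.133 and 0.135, where the SD of Irf7 was 0.41. Vipr2 stood near both. For Irf4 they were the deubiquitinase Otud1, the ubiquitin ligase Rnf167 and the tubulin-modifying enzyme Ttll5, at 0.0629, 0.0641 and 0.0773 against an SD of 0.272. For Irf8 they were Atp6v0a2, a subunit of the vacuolar proton pump, the transporter Slc37a1 and the nuclear-envelope gene Syne3, at 0.082, 0.0909 and 0.101 against an SD of 0.288. For Irf1 they were the endoplasmic oxidase Ero1b, Mfsd11 and Tmem50b, at 0.0949, 0.107 and 0.108 against an SD of 0.313. These distances describe 12 arrays in 3 groups, so any gene with the same group differences comes close.

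**Figure D4:**
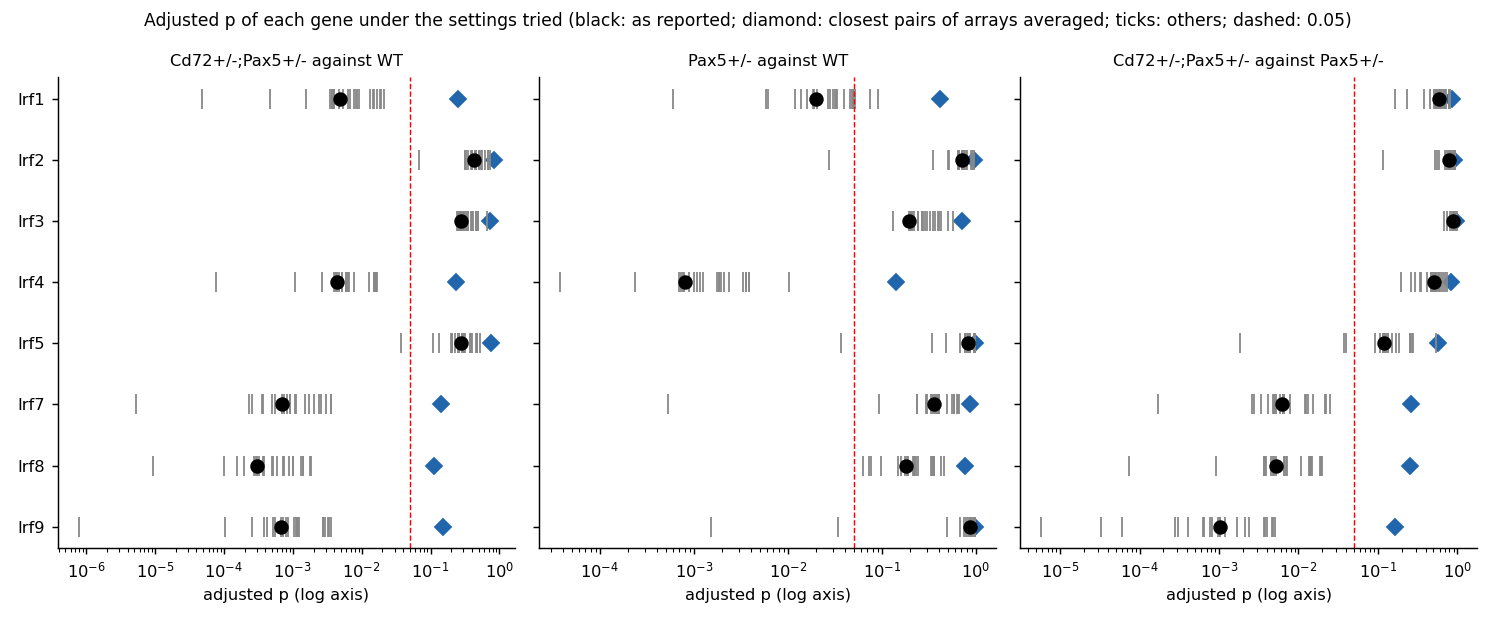
Adjusted p (log axis) of the 8 genes (rows) in 3 comparisons (panels), as reported (black), with the closest pairs of arrays averaged (diamonds) and under the other settings (ticks), with the threshold of 0.05 dashed. Every rise or fall reported for Irf4, Irf7, Irf8 and Irf9 stays below 0.05 under the settings drawn other than the averaged pairs, and with the pairs averaged all points lie above 0.05.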

How the data were processed

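The deposited table holds log2 signal values per transcript cluster, and the range of 3.67 to 14.73 with array medians of 6.91 to 7.005 was checked against that unit. Per the labels, total RNA was extracted with TRIzol, cleaned on columns with DNase and biotin-labelled for Affymetrix Mouse Gene ST arrays. Per the submitters' processing notes, the Transcriptome Analysis Console 4.0.3 was used. The sources used here do not give the background correction, the normalization or the genome build. No second normalization was applied. Of 28944 clusters, 21789 carry 1 symbol, 1621 several and 5534 none, by the platform annotation, and the 23410 with a symbol were tested.

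With limma 3.58.1 (R 4.3.3), 1 mean for each group was fitted to all 12 arrays (9 residual and 3.28 prior degrees of freedom), with empirical Bayes variances, 3 contrasts and Benjamini-Hochberg adjustment over all clusters. A call is an adjusted p under 0.05. The pipeline was tested on simulated data with independent noise on each array. That test does not model the close pairs, so it cannot tell how they affect the calls. The number of arrays limits the precision. SDs are over 4 arrays, and permutation tests are exact and two-sided. Named genes are the 8 members, up to 3 called genes per pathway list and comparison with the smallest adjusted p, up to 1 that did not pass, and the 3 genes with the nearest profile of each called member. Oas2, Stat2, Ifnb1, Ifna4, Ifnk, Igll1, Vpreb1, Sparc, Cxcl12, Flt3, Nkg7, Lat, Spi1, Prdm1, Siglech, Dntt, Ccr2, Cd68 and the Irf2bp genes were named from the lists after their values were seen. So were Col1a1, Col1a2, Kdr, Emcn, Cdh5, Pecam1, Ifna2, Ifna5, Ifna9, Ifng and Ifne. Members and lists were chosen with earlier results of these data known. The averaged pairs for the lists and the marker mean without Ccr2 were added after seeing the data. Symbols that no cluster carries alone, 21 of those listed, were not analysed here. Alternatives were quantile normalization, a filter on dim clusters, arrays set to a common median, all clusters, a trended robust prior, only the compared groups, array weights, the mean of a gene's clusters, the study's threshold, closest pairs averaged or as a random block, and arrays left out. Plots used matplotlib 3.10.9 and pandas 2.3.3 under Python 3.11.15.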

Additional observations from a re-analysis of the deposited data

How the results depend on the processing

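The number of called members was 2 in Pax5+/- against WT, 5 in Cd72+/-;Pax5+/- against WT and 3 in Cd72+/-;Pax5+/- against Pax5+/-. With the closest pairs averaged it was 0 in each comparison, with the same differences and 2 arrays' worth of values per group, and with the closest pairs as a random block (correlation 0.427) it was 2, 5 and 3. The study's threshold, read as an unadjusted p under 0.05 with a change over 2-fold, gave 0 in each, since no member changed 2-fold. In Pax5+/- against WT it was 1 with only the compared groups in the fit, and 5 without replicates 1 and 3 of WT and Pax5+/-, where WT and Pax5+/- keep only a close pair each, so the spread is small by construction. Leaving out each array in turn gave 1 to 2, 5 to 5 and 3 to 4 called members in these comparisons. Of 600 values of single members under 25 alternatives, 558 kept direction and side of the threshold, 23 lost the call, 8 gained one and 11 changed sign, and none of the 11 was called as reported. The sign of Irf3 in Cd72+/-;Pax5+/- against Pax5+/- changed with a common median (0.006), without Pax5+/- replicate 2 (0.006) and without Cd72+/-;Pax5+/- replicate 2 (0.003). That of Irf2 changed there without Pax5+/- replicate 1 (-0.01) and without replicates 1 and 3 of WT and Pax5+/- (-0.065). In Pax5+/- against WT, Irf5 changed sign without Pax5+/- replicate 4 (-0.015) and Irf9 without WT replicate 2 (-0.037), and without replicates 2 and 4 of both groups Irf2 (-0.105), Irf5 (-0.15), Irf7 (-0.12) and Irf9 (-0.27) did. Leaving out arrays in turn, these 4 differences ranged from -0.044 to 0.006 (Irf3), -0.01 to 0.093 (Irf2), -0.015 to 0.125 (Irf5) and -0.037 to 0.149 (Irf9). The cause was not tested. All 8 members passed the filter on dim clusters. No paired analysis was possible because the sample titles share no replicate number between groups.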

Other observations

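Some marker lists of other cell types were not described above. For scale, 7.78% of all clusters passed in Cd72+/-;Pax5+/- against WT, 7.47% in Pax5+/- against WT and 9.79% in Cd72+/-;Pax5+/- against Pax5+/-. Of 7 markers of conventional dendritic cells, which rely on Irf4 or Irf8, only Flt3 passed. It rose by 1.23 in Cd72+/-;Pax5+/- against WT and by 1.07 in Pax5+/- against WT (limma adjusted p = 5e-06 and 1.51e-05, and 0.034 and 0.0519 with the closest pairs of arrays averaged), and it is also a receptor of early lymphoid progenitors. The mean of that list, with Flt3 in it, was 6.65 to 6.76 in Cd72+/-;Pax5+/-, 6.65 to 6.74 in Pax5+/- and 6.48 to 6.63 in WT. A mean without Flt3 was not computed, so this mean does not speak for the other markers. None of 8 granulocyte markers passed in any comparison by limma or had an unadjusted p under 0.05 (0 of 8), with means of 6.00 to 6.05, 5.94 to 6.06 and 5.99 to 6.05 in the same groups. Of 7 markers of T and NK cells, none passed in Cd72+/-;Pax5+/- against WT by limma (0 with an unadjusted p under 0.05), while Nkg7 rose and Lat fell in Pax5+/- against WT (adjusted p = 0.456 and 0.0336 with the pairs averaged). Of 8 stromal and endothelial markers (median difference -0.646 in Cd72+/-;Pax5+/- against WT and -0.841 against Pax5+/-), Sparc fell by 1.97 and Cxcl12 fell by 1.92 in Cd72+/-;Pax5+/- against WT (limma adjusted p = 0.0408 and 0.0141, and 0.539 and 0.406 with the pairs averaged), and none passed in Pax5+/- against WT, where 1 had an unadjusted p under 0.05.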
